A study of Homo sapiens with 32 samples.

Results

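The comparison described here is the response of S455A (SA) cells to lipopolysaccharide (LPS), measured as 4 LPS-treated libraries (SA_LPS) against 4 untreated libraries (SA), which are 8 of the 32 libraries of the series. The cells were THP-1, a human monocytic leukaemia cell line, in which ATP-citrate lyase (ACLY) had been knocked out and replaced by an ACLY coding sequence with alanine in place of serine 455. The other lines of the series were the ACLY knockout (KO) and KO cells that received wild-type ACLY (WT) or the catalytically inactive H760A mutant (HA), each with 4 untreated and 4 LPS-treated libraries. LPS was given for 3 h at 100 ng/ml according to the labels, while the paragraph on cell treatment in the methods gives a lower concentration. Reconstitution of the knockout used a lentiviral vector and puromycin selection, so the SA cells differ from unmodified THP-1 cells in more than the substitution. Each genotype is a single line, and while the methods speak of independent experiments for the data in general, they do not say how the 4 libraries of a group were obtained. Unless stated otherwise, the p-values and standard errors (SE) below rest on a spread per gene pooled within the groups of all 32 libraries. They do not rest on the spread of the SA libraries alone. The pooled spread includes that of all LPS-treated groups and may be technical where cultures were shared. All genes with a mean deposited count of at least 10 over the 32 libraries were tested, 12406 of the 60107 genes listed.

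LPS, from the outer membrane of Gram-negative bacteria, is sensed by TLR4 with the co-receptors CD14 and LY96 (MD-2). The adaptor MYD88 leads from the receptor to NF-kB and AP-1, which drive genes of inflammatory cytokines and chemokines. The adaptor TICAM1 (TRIF) leads to IRF3 and interferon beta, whose receptor acts through JAK kinases to switch on interferon-stimulated genes. ACLY cleaves citrate to acetyl-CoA, which feeds lipid synthesis and histone acetylation. Serine 455 is its best known phosphorylation site, a target of Akt and protein kinase A, and alanine at this position cannot be phosphorylated.

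The 8 SA libraries ranged in depth from 8269759 to 14750815 reads (median 10945772). Library SA_LPS 1 stood apart from the rest of its group. It had no read for 699 of the genes tested, against 1 to 5 in SA_LPS 2 to 4 and 5 to 35 in the SA libraries, and 77 of the 699 had a normalised count of at least 50 in each of SA_LPS 2 to 4. Its mean Pearson correlation with its group, over log2 values of the genes tested, was 0.795, against 0.920 to 0.922 for SA_LPS 2 to 4. The means of SA_LPS 2 to 4 include their correlations with SA_LPS 1, which lower them. GAPDH, a glycolytic enzyme, stood at 84531 in SA_LPS 1 and at 12250 to 14512 in SA_LPS 2 to 4. SRF, a transcription factor of immediate early genes, stood at 38.2 there and at 3700 to 5286 in the other libraries of the group. Calls named below that depend on SA_LPS 1 are therefore given with and without it, as are the values of several genes. Log2 fold changes given once are with all libraries and can move without it. Examples are CCL4L2 (3.92, and 4.82 without it) and CCL3L1 (3.16, and 2.74 without it).

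**Figure D1:**
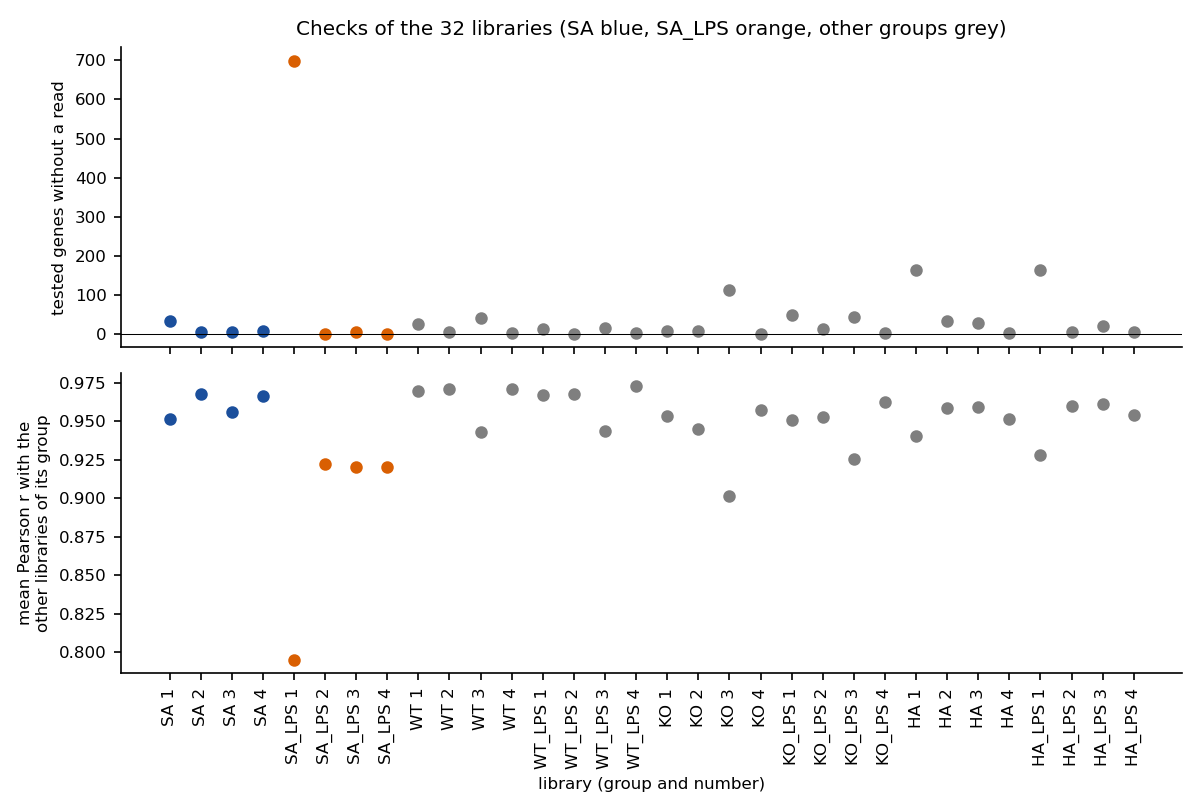
Points are the 32 libraries, with SA in blue, SA_LPS in orange and the other groups in grey; the upper panel gives the number of tested genes without a read, the lower panel the mean Pearson r with the other libraries of the same group. SA_LPS 1 lies at 699 genes and 0.795, outside the range of the other 31 libraries in both panels.

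The targeted gene ACLY had normalised counts of 162, 158, 149 and 102 in SA 1 to 4 and of 329, 100.2, 110 and 95.8 in SA_LPS 1 to 4. The high value is that of SA_LPS 1, and the other libraries of that group overlap the SA libraries. In the 8 KO libraries ACLY ranged from 60.3 to 106.9, against 90.7 to 124 in the 8 WT libraries. These ranges overlapped, and the reads, which lie at the 3′ end of the transcript, do not check the mutated position. According to the methods the vector received the coding sequence of ACLY. How far the counts include reads from the introduced copy was not tested, so they are not a measure of its level.

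Few genes were called as changed by LPS in SA cells, a count that depended on how the spread was estimated. The lists with most calls were the interferon-stimulated genes (20), the chemokines (9) and the survival, adhesion and effector genes (8), while 13 called genes were on no list. At a limma adjusted p below 0.01, 61 of the 12406 genes were called (0.492%), of which 58 were higher after LPS (0.468%) and 3 were lower (0.0242%). The 4 SA_LPS libraries did not overlap the 4 SA libraries for 57 of the 58 genes, PMAIP1 being the exception, and for all 3 lower genes. Of all genes tested, 518 (4.18%) had groups that did not overlap. Before adjustment 1222 genes had a p below 0.05, and the median log2 fold change of all genes tested was -0.02. Without SA_LPS 1 the count was 53 (0.427%), with 51 higher (0.411%) and 2 lower (0.0161%), and 46 genes were called either way. The groups of 14.4% of all genes then did not overlap.
The number of calls depended on the libraries from which the spread was estimated. Fitted on the 8 SA libraries alone, 7 genes were called, CXCL9, CXCL10, CXCL11, CCL4, IFIT2, SLAMF7 and TNFSF10, all higher, and fitted on these without SA_LPS 1, 39 genes were called, all higher. In total, 33 genes were called with all libraries, without SA_LPS 1, and in the SA libraries alone without SA_LPS 1, all of them higher. With each library weighted by its spread the count was 181 (134 higher and 47 lower), among them all 61. Some genes given below as not called were called in this weighted fit. Among them were CCL2, CXCL8, EPSTI1, IRF7, SOD2, TNFAIP3, SOCS1, MYD88 and CCNE1. Their limma adjusted p ran from 1.26e-05 (CCL2) to 0.00781 (CXCL8).

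**Figure D2:**
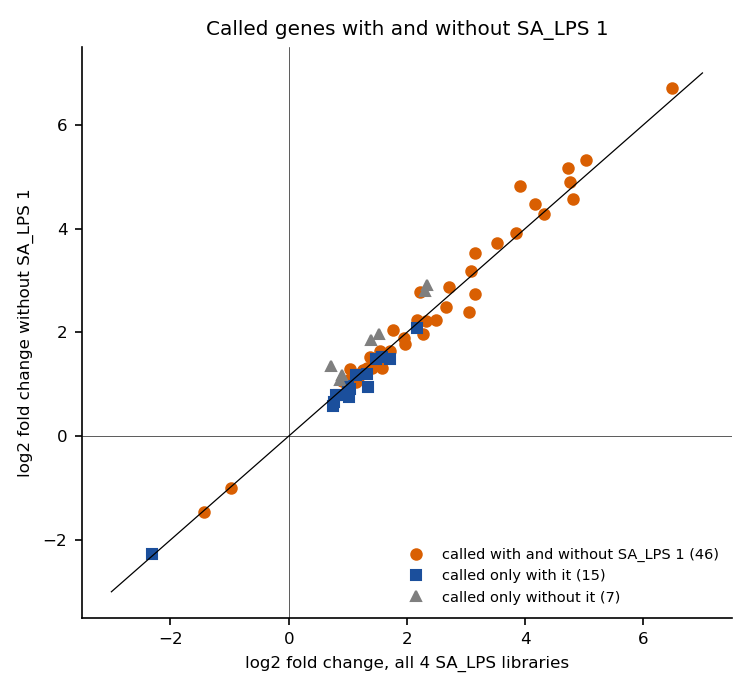
Points are the 68 genes called with or without SA_LPS 1, by their log2 fold change with all 4 SA_LPS libraries (x axis) and without SA_LPS 1 (y axis); the diagonal marks equal values. All points keep their sign, with CXCL9 at 6.49 and 6.72 at the upper end and C1QA at -2.32 and -2.27 at the lower end.

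Of 29 chemokine genes listed, 12 were tested, 9 rose and 0 fell, with a median log2 fold change of 4.01 (4.65 and 8 risen without SA_LPS 1) against -0.02 over all genes. CXCL9, CXCL10 and CXCL11 are the ligands of CXCR3, the receptor that draws activated T cells, and all 3 rose. CXCL9 (chr4:76001275-76007509, minus strand of GRCh38) had no read in any SA library and normalised counts of 54.4, 100.8, 147 and 76.1 in SA_LPS 1 to 4. Against a floor of 3 counts over the group, CXCL9 was at least 157-fold higher after LPS, or 173-fold without SA_LPS 1 (limma adjusted p = 3.96e-07).
CXCL10 (chr4:76021118-76023497, minus strand) had 60.06, 99.99, 106 and 71.7 in SA 1 to 4 and 1477, 3865, 3529 and 2659 in SA_LPS 1 to 4. The lowest treated library, SA_LPS 1, still lay far above every untreated library, and the log2 fold change was 5.02 (SE 0.43, limma adjusted p = 6.45e-09) with all libraries and 5.31 without SA_LPS 1. CXCL11, which lies beside CXCL10 on the same chromosome, rose from 21.5 ± 6.77 to 603 ± 152 (SD, n = 4), a log2 fold change of 4.76 (SE 0.38, limma adjusted p = 1.76e-09).

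The promoters of CXCL10 and CXCL11 are shown because both genes were higher in every treated library. Both promoters hold NF-kB matches, and they differ in the other motifs. The sequences are those of RefSeq (GRCh38.p14), from 250 bases before to 50 after the gene's start, read 5′ to 3′ on the gene's strand, which is the minus strand at chr4:76023448-76023747 and chr4:76036021-76036320. Capitals mark the core of the interferon-stimulated response element (ISRE), which is GAAA, any 2 bases and GAAA, the 10-base NF-kB consensus, and TGANTCA, the AP-1 site, searched on both strands. In CXCL10 the capitals are, in order, 1 ISRE core match and 2 NF-kB matches, and in CXCL11 1 AP-1 match and 1 NF-kB match, with no overlap between matches.
CXCL10: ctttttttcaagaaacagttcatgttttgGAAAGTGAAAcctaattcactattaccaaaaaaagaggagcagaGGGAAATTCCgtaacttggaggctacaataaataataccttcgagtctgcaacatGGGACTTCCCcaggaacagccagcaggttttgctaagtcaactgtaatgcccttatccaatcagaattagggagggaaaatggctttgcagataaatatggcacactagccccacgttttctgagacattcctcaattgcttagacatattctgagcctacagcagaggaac
CXCL11: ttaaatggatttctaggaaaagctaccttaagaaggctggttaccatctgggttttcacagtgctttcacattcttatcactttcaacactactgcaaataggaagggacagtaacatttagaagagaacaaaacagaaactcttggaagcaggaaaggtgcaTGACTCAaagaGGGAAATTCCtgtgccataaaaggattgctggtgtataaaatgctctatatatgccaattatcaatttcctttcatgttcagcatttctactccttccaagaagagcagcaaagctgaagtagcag

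Among the CC chemokines, which draw monocytes and T cells, CCL4 had 5.005, 12.5, 5.75 and 7.55 in SA 1 to 4 and 85.7, 289, 362 and 248 in SA_LPS 1 to 4. Every treated library was above every untreated library, with a log2 fold change of 4.72 (SE 0.53, limma adjusted p = 1.19e-06) or 5.17 without SA_LPS 1. CCL3 had 138, 74.99, 47.7 and 110 in SA 1 to 4 and 2795, 480.3, 466 and 429 in SA_LPS 1 to 4, and SA_LPS 1 was the highest here, not the lowest. The log2 fold change of CCL3 was 3.05 (SE 0.43, limma adjusted p = 6.73e-05), and 2.40 without SA_LPS 1 (limma adjusted p = 6.01e-05).
CCL4L2 and CCL3L1 rose by 3.92 and 3.16 on the log2 scale (limma adjusted p = 0.00104 and 7.99e-09), but these are near-identical copies of CCL4 and CCL3, and how the authors' counting divided the reads among copies is uncertain. CCL8 rose by 4.16 (limma adjusted p = 0.00184), from 0 to 7.55 counts in the SA libraries to 28.9 to 77.8. Its adjusted p was 0.0173 without SA 1, 0.0104 without SA_LPS 2 and 0.0102 without SA_LPS 3, by limma.
CCL5, a T cell chemokine already at 1006 ± 64.2 in untreated cells, was at 1720 ± 431 after LPS, a log2 fold change of 0.75 (SE 0.14, limma adjusted p = 0.00323). The CCL5 call was lost without SA_LPS 1 (0.58, limma adjusted p = 0.0195), SA 1 (0.0107), SA 2 (0.0214) or SA 3 (0.0119).
CCL2, the ligand of CCR2 on monocytes, had 1.88, 23.2, 124 and 7.55 in SA 1 to 4 and 18.5, 778, 793 and 548 in SA_LPS 1 to 4. SA_LPS 2 to 4 were far above all SA libraries and SA_LPS 1 lay among them, and CCL2 was not called (log2 fold change 4.11, limma adjusted p = 0.182), nor without SA_LPS 1 (5.4, limma adjusted p = 0.0211). CXCL8, the neutrophil chemokine, was likewise at 2.32 in SA_LPS 1 and at 25.5 to 35.3 in SA_LPS 2 to 4, against 0.626 to 19.7 in the SA libraries (limma adjusted p = 0.485, or 0.125 without SA_LPS 1). The 17 chemokines that were not tested included CXCL1, at 0.943 to 6.26 in SA and 0 to 14.8 in SA_LPS, and CCL20, with no read in SA and at most 4.28 in SA_LPS.

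**Figure D3:**
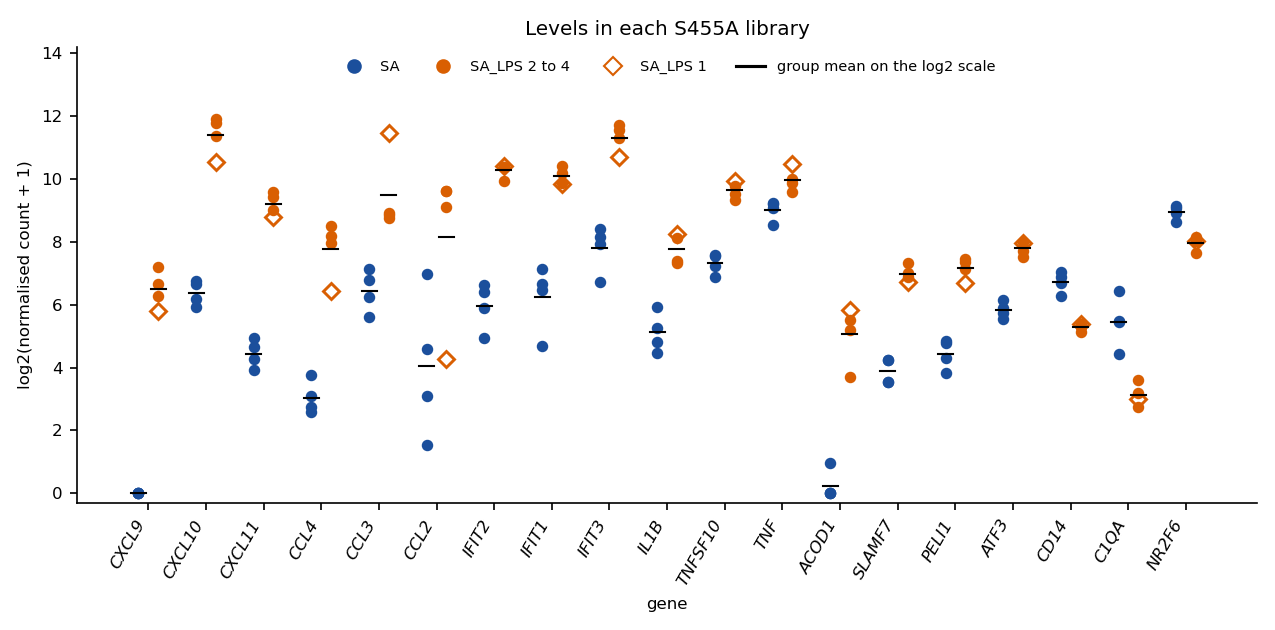
Levels of 19 genes in the 8 SA libraries, as log2(normalised count + 1), with SA in blue, SA_LPS 2 to 4 in orange, SA_LPS 1 as an open diamond and group means as bars. The diamond lies with or near the other treated libraries for CXCL9, IFIT2, ATF3 and CD14, below them for CCL2 and CCL4 and above them for CCL3.

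Of 66 interferon-stimulated genes listed, 64 were tested, 20 rose and 0 fell, with a median log2 fold change of 0.89 (0.92 and 17 risen without SA_LPS 1). The count was 12 without SA 1, without SA_LPS 2 or without SA_LPS 3, 36 with library weights and 1, IFIT2, in the SA libraries alone. IFIT2, IFIT1 and IFIT3, whose products bind viral RNA, had the largest log2 fold changes on the list. IFIT2 (chr10:89283694-89309271, plus strand) had 29.4, 58.0, 83.0 and 97.1 in SA 1 to 4 and 1356, 1345, 1339 and 978 in SA_LPS 1 to 4. The lowest treated library was SA_LPS 4, and the log2 fold change was 4.33 (SE 0.31, limma adjusted p = 4.39e-10), or 4.28 without SA_LPS 1.
IFIT1 had 25.02, 87.5, 100.3 and 141 in SA 1 to 4 and 907, 1372, 1172 and 946 in SA_LPS 1 to 4. IFIT3 had 104, 337, 243 and 281 before LPS and 1649, 3026, 3372 and 2514 after. Neither gene's groups overlapped, and their log2 fold changes were 3.84 and 3.52 (limma adjusted p = 4.61e-09 and 8.32e-10). IFIT5 rose by 2.22 (limma adjusted p = 0.00212), from 23.6 to 47.3 in the SA libraries to 47.5 in SA_LPS 1 and 205 to 245 in SA_LPS 2 to 4, so that SA_LPS 1 was only just above the highest SA library.
OASL, an oligoadenylate synthetase-like protein that enhances RIG-I signalling, rose by 3.14 (limma adjusted p = 7.32e-07), and OAS1, which makes the 2-5A activator of RNase L, by 1.26 (limma adjusted p = 5.48e-05). The sensors of viral RNA DDX58 (RIG-I) and IFIH1 (MDA5) rose by 1.71 and 1.15 (limma adjusted p = 6.90e-05 and 0.00586), IFIH1 with an adjusted p of 0.0114 without SA_LPS 1. Of the guanylate-binding proteins, interferon-induced GTPases, GBP5 rose by 2.49, GBP4 by 1.76 and GBP1 by 1.58 (limma adjusted p = 1.60e-05, 0.000136 and 0.00313).
CXCL11, IFIT2, GBP1, IFI44 and EPSTI1 are the genes that the study called higher in SA than in WT cells after LPS. They were chosen on these libraries, so they are no independent evidence of direction. GBP1 had 26.3 to 53.8 in SA and 114 to 149 in SA_LPS, and its call was lost without SA 1 (limma adjusted p = 0.028), SA_LPS 1 (0.0118), SA_LPS 2 (0.0104) or SA_LPS 3 (0.0133). IFI44, at 108 to 192 before LPS and 366 to 407 after, rose by 1.48 (limma adjusted p = 0.00911), a call kept on leaving out SA 3 (0.00699) and lost without any other of the 8 libraries (0.0214 to 0.0622). EPSTI1, at 211 to 328 before and 413 to 536 after, did not overlap either and was not called (log2 fold change 1.02, limma adjusted p = 0.0846).
Transcription factors of the interferon response were also measured. IRF1 rose from 613 ± 110 to 1643 ± 331 (SD, n = 4), a log2 fold change of 1.41 (limma adjusted p = 5.79e-06). IRF7 had a log2 fold change of 1.24 and was not called (limma adjusted p = 0.252), and IFNB1, interferon beta itself, had a single read in SA_LPS 4 and none in the other 7 libraries. IFI27, the most abundant member of the list, was at 13547 to 15072 in SA and 12352 to 16854 in SA_LPS and was not called (log2 fold change 0.11, limma adjusted p = 0.874).

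The IFIT1 and IFIT3 promoters hold 2 ISRE core matches each, written on the gene's strand as the reverse complement, and neither holds an NF-kB or AP-1 match. They lie on the plus strand at chr10:89392373-89392672 and chr10:89327747-89328046 (RefSeq, GRCh38.p14), and capitals mark the matches.
IFIT1: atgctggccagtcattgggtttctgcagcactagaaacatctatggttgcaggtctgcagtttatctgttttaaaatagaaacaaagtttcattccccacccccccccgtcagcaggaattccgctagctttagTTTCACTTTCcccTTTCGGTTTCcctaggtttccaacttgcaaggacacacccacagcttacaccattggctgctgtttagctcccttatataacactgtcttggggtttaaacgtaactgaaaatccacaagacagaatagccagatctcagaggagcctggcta
IFIT3: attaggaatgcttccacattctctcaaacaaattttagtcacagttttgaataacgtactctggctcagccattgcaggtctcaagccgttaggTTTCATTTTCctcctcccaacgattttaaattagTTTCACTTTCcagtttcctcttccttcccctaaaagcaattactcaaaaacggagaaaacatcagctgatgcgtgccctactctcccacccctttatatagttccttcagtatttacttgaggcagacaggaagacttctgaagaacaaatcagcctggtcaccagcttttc
RefSeq promoters were matched for 49 of the 61 called genes. The ISRE core was found in 17 of 47 promoters of genes that rose (36.2%), against 3.65% of all 27305 promoters and 2.87% of the 9657 promoters of genes tested. Among the risen genes on the interferon list it was in 12 of 16 (75%), and among members of that list that were tested and not called in 19 of 35 (54.3%). The NF-kB consensus was in 8 of 47 (17%), against 10.8% of all promoters and 13% of those tested, and TGANTCA in 6 of 47 (12.8%), against 7.76% and 4.11%. A match describes the letters only, and binding was not measured here.
The promoter of BIRC3, an inhibitor of apoptosis on the survival list, is shown as a contrast, with 2 NF-kB matches in capitals and no ISRE core match (chr11:102317234-102317533, plus strand).
BIRC3: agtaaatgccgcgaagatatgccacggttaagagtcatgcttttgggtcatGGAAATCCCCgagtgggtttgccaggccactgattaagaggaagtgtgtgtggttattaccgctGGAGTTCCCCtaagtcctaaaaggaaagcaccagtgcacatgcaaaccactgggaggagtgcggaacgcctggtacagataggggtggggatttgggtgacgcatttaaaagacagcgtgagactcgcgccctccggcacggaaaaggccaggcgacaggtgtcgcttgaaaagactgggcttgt

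Of 36 cytokine genes listed, 17 were tested and 4 rose, IL1B, TNFSF10, TNFSF13B and TNF, with a median log2 fold change of 0.26 over the 17 (0.79 and 4 risen without SA_LPS 1). IL1B, which encodes interleukin-1 beta, had 21.3, 37.5, 60.003 and 27.4 in SA 1 to 4 and 307, 167, 280 and 160 in SA_LPS 1 to 4. All treated libraries were above the untreated, and the log2 fold change was 2.66 (SE 0.38, limma adjusted p = 7.08e-05). TNFSF10, the death ligand TRAIL, rose from 161 ± 33.5 to 808 ± 148 (log2 fold change 2.32, limma adjusted p = 5.56e-09).
TNF had 538, 584, 596 and 373 in SA 1 to 4 and 1431, 932, 1014 and 770 in SA_LPS 1 to 4, a smaller step of 0.97 (SE 0.15, limma adjusted p = 0.000254). Its SA_LPS 1 value is the highest, and without that library the log2 fold change was 0.81 (limma adjusted p = 0.00122). TNFSF13B (BAFF), a survival factor of B cells, rose by 1.30 (limma adjusted p = 0.000191). The 19 cytokines not tested included IL6, with 1 read in SA_LPS 2 and none in the other libraries, and IL12B, with reads in SA_LPS 3 only.

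Of 45 survival, adhesion and effector genes, 32 were tested and 8 rose, with a median log2 fold change of 0.72 (0.99 and 6 risen without SA_LPS 1). ACOD1, which makes the antimicrobial metabolite itaconate, had 1 read in SA 4 and none in SA 1 to 3, and normalised counts of 55.6, 44.3, 36.0 and 12.0 in SA_LPS 1 to 4. The ratio of its group totals was 182, with an exact 95% counting interval of 32.2 to 7224 that covers counting error only (limma adjusted p = 7.58e-06). SLAMF7, a receptor of the SLAM family, had 10.6, 17.9, 10.7 and 17.9 before LPS and 104, 128, 160 and 116 after, a log2 fold change of 3.09 (SE 0.26, limma adjusted p = 4.57e-09).
TNFRSF9 (4-1BB), a costimulatory receptor, rose by 2.27 (limma adjusted p = 0.000273) and BIRC3 by 1.97 (limma adjusted p = 2.45e-06). The adhesion molecule ICAM1 rose by 1.71 and TNFAIP2 by 1.32 (limma adjusted p = 0.00321 for each), and both calls were lost without SA_LPS 1 (0.0218 and 0.0195). PMAIP1 (NOXA), a pro-apoptotic BCL2 family member, had 308 to 436 in SA, 414 in SA_LPS 1 and 722 to 900.2 in SA_LPS 2 to 4 (log2 fold change 1.04, limma adjusted p = 0.00152).
SOD2, the mitochondrial superoxide dismutase, was at 409 to 792 in SA and at 574 in SA_LPS 1 and 1258 to 1639 in SA_LPS 2 to 4, and was not called either way (limma adjusted p = 0.402 and 0.198 without SA_LPS 1).

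Of 27 immediate early and AP-1 factors tested of 32 listed, 4 rose, with a median log2 fold change of 0.13 (0.42 and 4 risen without SA_LPS 1). ATF3, a stress-induced repressor, rose from 57.1 ± 10.4 to 223 ± 33.9 (1.95, limma adjusted p = 7.32e-07). JUN, an AP-1 subunit, rose by 0.99 and CSRNP1, a nuclear protein of the AXUD1 family, by 0.95 (limma adjusted p = 0.00102 and 0.00685).
FOS, at 51.9 to 109 in SA and 85.9 to 159 in SA_LPS, was not called (limma adjusted p = 0.747). In the SA libraries alone 0 of these factors were called, and 2 without SA_LPS 1.

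No NF-kB subunit or inhibitor was called among 19 tested, of which 9 had an unadjusted p below 0.05 and 15 were higher, with a median log2 fold change of 0.29 (0.31 without SA_LPS 1). Over all 12406 genes tested, 1222 had such a p and 5899 were higher. With library weights 3 were called and without SA 1, 1. NFKBIA, the inhibitor IkB-alpha, had 2489, 4526, 4828 and 3084 in SA 1 to 4 and 1333, 7730, 8112 and 6333 in SA_LPS 1 to 4. SA_LPS 2 to 4 exceeded every SA library and SA_LPS 1 was below all of them, giving 0.41 with it and 1.03 without it (limma adjusted p = 0.808 and 0.351). TNFAIP3 (A20), the deubiquitinase that ends NF-kB signalling, was at 554 to 815 in SA, 4895 in SA_LPS 1 and 935 to 1170 in SA_LPS 2 to 4, which did not overlap and was not called (log2 fold change 1.31, limma adjusted p = 0.0604, and 0.75 and 0.211 without SA_LPS 1).
Of 25 signal terminators tested, 1 rose, PELI1, an E3 ubiquitin ligase of the Toll and IL-1 receptor pathways. PELI1 had 13.1, 26.8, 27.9 and 18.9 before LPS and 103, 162, 175 and 139 after, a log2 fold change of 2.71 (SE 0.37, limma adjusted p = 3.54e-05). SOCS1, the inhibitor of JAK kinases, had 0 to 1.64 in SA, 0 in SA_LPS 1 and 24.4 to 38.5 in SA_LPS 2 to 4, and was not called (limma adjusted p = 0.318, or 0.0256 without SA_LPS 1). SOCS1 was called in the SA libraries alone without SA_LPS 1 (limma adjusted p = 0.00895) and with library weights (0.00044).
Among 13 inflammasome genes tested, AIM2, the sensor of cytosolic DNA, rose by 2.16 (limma adjusted p = 0.00366), from 8.03 to 24.4 in SA to 45.6 to 79.0 in SA_LPS. Without SA_LPS 1 its adjusted p was 0.0154, and the call was also lost without SA 2 (0.0305), SA 3 (0.0188) or SA_LPS 3 (0.0203). NLRP3, the sensor that activates caspase-1, was at 144 to 220 before and 140 to 181 after LPS (limma adjusted p = 0.769).

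**Figure D4:**
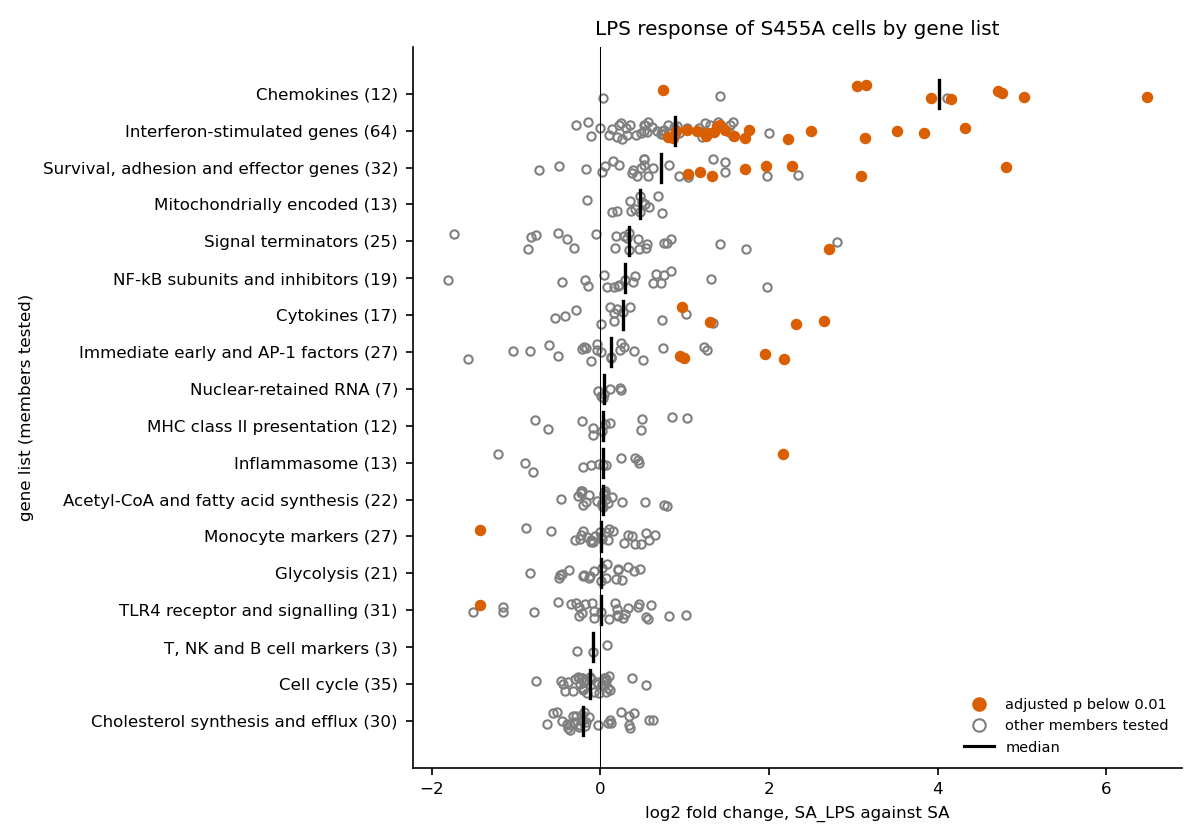
Each point is a tested member of a gene list, at its log2 fold change between SA_LPS and SA, filled where the limma adjusted p is below 0.01, and bars mark list medians. Filled points on the right lie mainly in the chemokine list (9 of 12) and the interferon-stimulated list (20 of 64), and the filled points on the left are CD14, which is on 2 lists.

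The genes that fell were CD14, NR2F6 and C1QA. CD14, the co-receptor that hands LPS to TLR4, had 117, 130, 103 and 77.3 in SA 1 to 4 and 40.5, 37.9, 40.6 and 34.2 in SA_LPS 1 to 4. All 4 treated libraries lay together below the untreated, with a log2 fold change of -1.43 (SE 0.26, limma adjusted p = 0.00169), and -1.46 without SA_LPS 1 (limma adjusted p = 0.0033). Its adjusted p was 0.0104 without SA 1 and 0.0138 without SA 2.
NR2F6, an orphan nuclear receptor, had 559.9, 488, 395 and 545 in SA 1 to 4 and 262, 199.7, 287 and 258 in SA_LPS 1 to 4, a log2 fold change of -0.98 (limma adjusted p = 0.00366). The NR2F6 call was lost without SA 1 (0.0243), SA 2 (0.0145), SA 4 (0.0219), SA_LPS 2 (0.0285) or SA_LPS 4 (0.0105). C1QA, a chain of complement C1q, fell from 48.3 ± 27.5 to 7.99 ± 2.29, by 2.32 on the log2 scale (limma adjusted p = 0.00768), a call kept without SA 3 (0.00284) and lost without any other of the 8 libraries (0.0107 to 0.0728). In the SA libraries alone none of the 3 was called, with or without SA_LPS 1.
Of 31 genes of the TLR4 pathway tested, CD14 was the only one called, and the median log2 fold change was 0.01. TLR4 itself was low, at 6.26 to 27.9 in SA and 0 to 19.9 in SA_LPS, and LY96 at 6.26 to 16.98 and 0 to 15.1, with the values of 0 in SA_LPS 1. MYD88 was at 22.6 to 128 in SA and at 3.47 in SA_LPS 1 against 188 to 300.5 in SA_LPS 2 to 4 (limma adjusted p = 0.818, or 0.157 without SA_LPS 1).

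In the main fit no gene was called on the lists nearest to ACLY's product, acetyl-CoA, or on the glycolysis, MHC class II presentation and cell cycle lists. Of the lists for acetyl-CoA and fatty acid synthesis (22 tested), cholesterol synthesis and efflux (30), glycolysis (21), MHC class II presentation (12) and cell cycle (35), limma called 0 members, and 1, 0, 2, 3 and 4 had an unadjusted p below 0.05. Over all 12406 genes tested, 1222 had such a p. Their median log2 fold changes were 0.03, -0.21, 0.01, 0.04 and -0.12, and without SA_LPS 1 they were 0.02, -0.01, -0.08, 0.20 and -0.15. FASN, fatty acid synthase, was at 1819 to 3083 in SA and 1755 to 3931 in SA_LPS (log2 fold change -0.22, limma adjusted p = 0.807). SCD, the stearoyl-CoA desaturase, was at 805 to 1707 and 1627 to 2082 (0.53, limma adjusted p = 0.614). CCNE1, cyclin E1, was at 375 to 511 and 162 to 324, which did not overlap and was not called (-0.77, limma adjusted p = 0.0175). With library weights CCNE1 was called (limma adjusted p = 0.00165).
The cells carried monocytic markers throughout, with 27 of 28 tested and sums over the list of 99767 to 122710 in SA and 112880 to 183800 in SA_LPS, CTSG (cathepsin G) at 28998 to 45877 over the 8 libraries. Of the 16 T, NK and B cell markers 3 were tested, and the list summed to 249 to 313 in SA and 203 to 370 in SA_LPS. Fibroblast and epithelial markers summed to 13.1 to 33.9 and 23.1 to 37.0, and erythroid and platelet markers to 0 to 3.57 and 0 to 1.71. In these bulk libraries fewer cells with a transcript and less of it per cell cannot be told apart. Mitochondrially encoded genes (13 tested, 0 called, 2 at p below 0.05) had a median log2 fold change of 0.47, and mitochondrial reads were 1.63 to 3.28% in SA and 2.07 to 4.27% in SA_LPS, with the highest share in SA_LPS 4. Their part in the results was not tested.

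The LPS responses of the other lines were compared with that of SA cells to see whether the S455A substitution altered the response. All 61 genes called in SA cells had the same sign in WT, KO and HA cells. In those lines limma called 31 (0.25%, all higher), 72 (0.58%) and 50 (0.403%) of the genes tested. The calls in KO cells were 63 higher (0.508%) and 9 lower (0.0725%), those in HA cells 48 higher (0.387%) and 2 lower (0.0161%). Of the 61, 30, 43 and 41 were called in WT, KO and HA cells as well, 27 in all 4 lines. The 4 responses share no library. Tested directly as an interaction, the response of SA cells was called different from that of WT, KO or HA cells for 0 genes (limma adjusted p below 0.01). Of the 12406 genes tested, 457, 324 and 385 had an unadjusted limma p below 0.05, each less than the about 5% that chance gives. The smallest limma adjusted p were 0.9975, 0.163 and 0.979. The counts at an unadjusted p below 0.05 depended on the fit. With library weights they were 2004 (WT), 669 (KO) and 674 (HA). With only the groups compared and without SA_LPS 1 they were 861, 198 and 252. In both of these fits 0 genes were called against WT.
Of the 58 risen genes, 54 had a higher log2 fold change in SA than in WT cells, 38 than in KO and 46 than in HA cells. These genes were chosen by their SA values, which favours SA, so these counts are a description. CXCL10 rose by 5.02 in SA and 3.87 in WT cells, a difference of 1.15 with a 95% interval of -0.11 to 2.41, and IL1B by 2.66 against 1.35, a difference of 1.31 (0.21 to 2.41, limma adjusted p = 0.9975 for both). IFIT1 rose by 3.84 in SA and 1.57 in KO cells, a difference of 2.27 (1.33 to 3.20, limma adjusted p = 0.163).
CCL5 went the other way, with a log2 fold change of 0.75 in SA and 1.77 in KO cells. The difference was -1.02 (-1.43 to -0.62, limma adjusted p = 0.163) with all libraries. Without SA_LPS 1 it was -1.19 and was the only gene called in that contrast (0.00806% of genes tested, limma adjusted p = 0.00306), while 0 were called against WT and HA. CD14 had log2 fold changes of -1.43 in SA, -0.54 in WT, -2.07 in KO and -1.71 in HA cells.
Over the chemokine list the median log2 fold change was 4.01 in SA, 3.43 in WT, 3.78 in KO and 3.68 in HA cells, and 10, 5 and 6 of the 12 members had a higher log2 fold change in SA than in WT, KO and HA cells. Over the interferon-stimulated list it was 0.89, 0.66, 0.43 and 0.58, with 20, 8, 10 and 11 members risen, and over the cytokine list 0.26 (0.79 without SA_LPS 1), 0.35, 0.81 and 0.92. Gene by gene, the median differences on the cytokine list were 0.09 (SA minus WT), -0.05 (SA minus KO) and 0.02 (SA minus HA). The genes that the study called higher in SA than in WT cells, CXCL11, IFI44, GBP1, EPSTI1 and IFIT2, come from levels after LPS. That contrast is unlike the interaction, which compares responses. Untreated levels, from which these responses start, were not compared between the lines here.

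**Figure D5:**
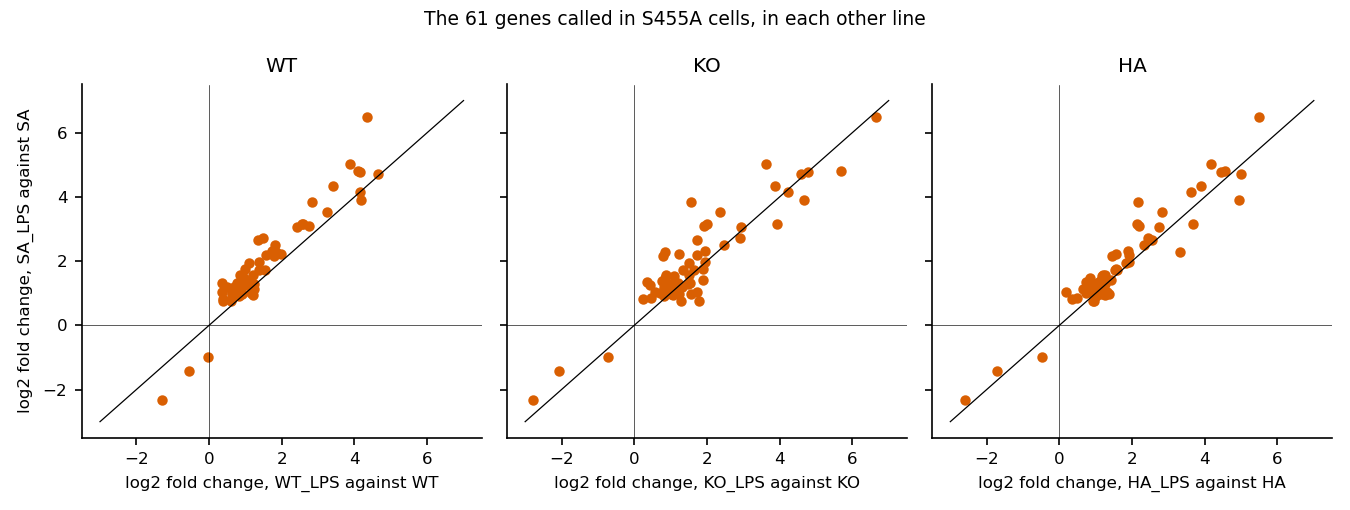
Each panel plots the log2 fold change of the 61 genes called in SA cells (y axis) against that in WT, KO or HA cells (x axis), with the diagonal as the line of equal response. Most risen genes lie above the diagonal against WT (54 of 58), fewer against HA (46) and KO (38), and the 3 lower genes are below 0 in all panels.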

How the data were processed

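QuantSeq 3′ mRNA-seq measures each transcript by reads at its 3′ end, so counts do not grow with transcript length. According to the methods, the authors used the Bluebee QuantSeq pipeline, in which Bbduk trims reads, STAR aligns them to GRCh38 and HTSeq-count assigns them to genes, followed by DESeq2; versions and the annotation release are not given in the sources used here. The values deposited by the authors are counts per gene and library divided by DESeq2 size factors, and they were computed separately for each line. Division by the value of 1 read gave whole numbers, within 0.05 reads, for 100% of values, so reads could be recovered. These were divided by median-of-ratios factors over all 32 libraries, on 12406 genes with a mean deposited count of at least 10, which assumes that most genes did not change. Spike-in controls (92 of 60199 rows, 1 read in all) were left out, and 3463 genes had no symbol.

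The 32 libraries held 6504099 to 14750815 reads on genes. Molecular identifiers were not counted, so the counting interval given for ACOD1 covers counting error only. The intervals given for differences between the lines are from limma and rest on the pooled spread between libraries. limma 3.58.1 in R 4.3.3 was fitted with a trend to log2(normalised count + 1), which understates the change of low genes, with 8 group means. Adjustment (Benjamini-Hochberg) ran over all genes tested in a contrast, and the limit of 0.01 is the one the study used. Replicate libraries differed by more than sampling noise (chi-square per gene of at least 10.8 between any 2 SA libraries of a group), so none was a copy. The members and the 20 gene lists were chosen with earlier results of these data known, so they are no independent support. Named genes are up to 15 rises and 15 falls of largest size among calls with groups that did not overlap and a mean of at least 20 over the SA libraries, the leading and most abundant members of each list, ACLY, B2M and genes named in the study; genes outside this rule were chosen after their values were seen. GENCODE 44, which held 56104 of 60107 identifiers, gave the gene positions, and promoters are from RefSeq. Alternatives changed the scale, filter, pseudocount, libraries, weights and replicate block. The values of 2 called genes are not reported here.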

Additional observations from a re-analysis of the deposited data

Results flagged for a closer look

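In groups of 4 libraries, 144 values were checked for a library far from the other 3 by Dixon's test, and 22 stood out, where chance gives about 5%. Of these 15 were in SA_LPS 1. It was high for CCL3 (2795, the others 429 to 480.3), JUND (5146, the others 789.6 to 1037), GAPDH (84531, the others 12250 to 14512), IFITM3 (26526, the others 6230 to 6688), CD74 (3279, the others 1820 to 1930) and ACLY (329, the others 95.8 to 110), and in its tested genes without a read (699, the others 1 to 5). It was low for CCL2 (18.5), CCL4L2 (33.6, the others 345 to 466), NFKBIA (1333), MCL1 (640.2, the others 3193 to 3308), IFI27 (12352), OIP5-AS1 (956, the others 1370 to 1425) and SRF (38.2), and in its mean correlation with its group (0.795).

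Of the other libraries, SA 4 held the single ACOD1 read of its group (0.943), SA_LPS 4 was low for IFIT2 (978, the others 1339 to 1356) and SA 1 low for GBP1 (26.3, the others 49.3 to 53.8). For EPSTI1, SA 3 was high (328, the others 211 to 227) and SA_LPS 3 low (413, the others 518 to 536). SA 1 had 35 tested genes without a read against 5 to 8 in the other SA libraries, and mitochondrial reads were 4.27% in SA_LPS 4 against 2.07 to 2.43% in the rest of its group. This was not particular to SA_LPS, as the library of number 4 had the highest mitochondrial share in every group. Its share was 3.28% in SA, 3.63% in WT, 3.20% in WT_LPS and 3.58% in KO. In KO_LPS it was 4.56%, in HA 4.79% and in HA_LPS 4.56%. The cause of these values was not tested.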

How the results depend on the processing

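The count of 61 genes called by limma was 7 with only the SA libraries in the fit, 39 with these and without SA_LPS replicate 1, 181 with library weights, and 184 with library weights and without SA_LPS replicate 1, chosen after seeing the data. Leaving out each library in turn gave 45 to 59 calls, and the deposited scale, trimmed-mean factors, other pseudocounts, other filters and voom on recovered reads (added after the data were seen) gave 54 to 63. The contrast of SA with KO called 1 gene with library weights and 0 to 1 genes on leaving out each library in turn, the 1 without SA_LPS replicate 1. Over 30 named genes called, 542 of 657 alternative values remained called in the same direction, 115 were not called and 0 turned. Without a filter C1QA and IFI44 were not called, with trimmed-mean factors IFI44 was not, and with voom AIM2, C1QA, CCL4L2, CCL8, GBP1 and IFI44 were not. The cause was not tested. Count tests with edgeR and DESeq2, and TMM factors from edgeR, were planned and not run, because the deposited decimal commas kept the table from being typed as counts.

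No label ties the replicate numbers shared by SA and SA_LPS to a culture or day. The numbers were not taken as pairs in the main fit, because 1 of the 4 SA correlations of deviations was under 0.1. That choice does not show that they are unpaired. The SA correlations were 0.489, 0.305, 0.35 and -0.143 for numbers 1 to 4, and both libraries of number 1, but not of every number, correlated best with each other. In WT and KO cells all correlations were above 0.1 (0.263 to 0.68 and 0.124 to 0.675). In HA cells they were 0.404, -0.219, 0.0569 and 0.581 for numbers 1 to 4. In WT cells both libraries of every number correlated best with each other. The same held for numbers 2 to 4 in KO cells and for numbers 1 and 4 in HA cells. In every group the library of number 4 had the highest mitochondrial share. What libraries of one number have in common was not tested. The SA deviations were taken from group means that include SA_LPS 1, so the SA correlations do not settle whether the numbers are pairs. With the replicate block in the SA libraries 3 genes were called, and with the replicate block and number 1 left out, added after the data were seen, 39.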

Other observations

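Of the 61 genes called in SA cells, 13 are on none of the 20 lists, and 10 with a symbol rose. They include antiviral proteins and others outside the lists, and were named after their values were seen. ZC3HAV1 (ZAP), which binds CpG-rich viral RNA, rose from 1221 ± 139 to 3851 ± 1685 normalised counts (SD, n = 4), a log2 fold change of 1.57 (limma adjusted p = 1.19e-05). APOL6, an apolipoprotein L family member, rose by 1.32 (limma adjusted p = 3.96e-07) and NEXN, an actin-binding protein, by 1.54 (limma adjusted p = 1.41e-06). IL10RA, the ligand-binding chain of the receptor for interleukin-10, rose from 272 ± 30.2 to 666 ± 132, by 1.27 (limma adjusted p = 0.000183), and its log2 fold changes in WT, KO and HA cells were 1.24, 1.47 and 1.25. TAGAP, a GTPase-activating protein of T cells, PPM1K, a mitochondrial phosphatase of branched-chain amino acid breakdown, and NCOA7, a nuclear receptor coactivator, rose by 1.13, 1.19 and 0.99 (limma adjusted p = 7.52e-05, 0.00104 and 0.000732). HRH1, the histamine H1 receptor, SAT1, which acetylates polyamines, and the zinc finger gene ZNF107 rose by 1.01, 1.02 and 1.03, and these 3 were not called without SA_LPS 1 (limma adjusted p = 0.0237, 0.0226 and 0.0244).

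Without SA_LPS 1, 7 further genes were called, among them RSAD2 (viperin), an antiviral enzyme, ISG20, an RNA exonuclease, MX2, a GTPase that restricts retroviruses, and BATF2, an AP-1 family factor. Their log2 fold changes were 1.39, 1.53, 0.87 and 2.31 with that library and 1.86, 1.96, 1.09 and 2.79 without it.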
